A study of Mus musculus with 56 samples.

Results

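The cytosolic ribosomal protein genes were followed here through ribosome-bound RNA of motor neurons and whole RNA of the spinal cord. Members were taken by symbol: every mouse gene whose name begins with Rpl or Rps and a number, together with Rplp0, Rplp1, Rplp2 and Rpsa, without symbols marked -ps and without the Rps6k kinases. This gave 92 genes of 43629 in the count files, of which 87 had enough counts to be tested. The rule is one of names, so it also holds Rps19bp1, a protein that binds a ribosomal protein, and retrocopies such as Rps27rt, while Fau and Rack1, which also encode ribosomal proteins, lie outside it. The annotation types 86 members as protein coding, Rpl6l, Rps12l1, Rps3a2 and Rps3a3 as processed pseudogenes, and Rpl37rt and Rps4l, both tested, as transcribed processed pseudogenes. The 5 members that were not tested, Rpl10l, Rpl6l, Rps12l1, Rps3a2 and Rps3a3, had 12, 44, 7, 38 and 216 counts in all libraries together.

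Each ribosome carries one copy of nearly every one of these proteins, which are shared between a small (40S, Rps) and a large (60S, Rpl) subunit. Their mRNAs are short, abundant and, as a class, begin with a run of pyrimidines (the terminal oligopyrimidine, or TOP, motif), through which their translation follows growth signals. Motor neurons are large cells with dense stacks of ribosomes, known as Nissl substance.

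The study asked which mRNAs change on the ribosomes of motor neurons around the onset of symptoms. All mice carried the Chat bacTRAP transgene, which drives EGFP-tagged ribosomal protein L10a from the promoter of choline acetyltransferase (Chat), so that ribosomes of cholinergic neurons, motor neurons among them, can be pulled down (MN-TRAP). They carried either no other transgene (Chat bacTRAP), human TDP-43 with the A315T mutation (hTDP-43A315T) or human wild-type TDP-43 (hTDP-43WT), the latter pair under the prion promoter, which acts in many cell types. Mice were female according to the study's methods, which speak of the whole spinal cord where the labels give its cervical part. Ages were 9 and 14 weeks. In MN-TRAP there were 4 libraries of Chat bacTRAP at either age, 5 at 9 and 4 at 14 weeks of hTDP-43A315T, and 3 at 9 and 5 at 14 weeks of hTDP-43WT. In spinal cord there were 6 and 5 libraries of Chat bacTRAP, 5 and 4 of hTDP-43A315T, and 6 and 5 of hTDP-43WT.

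Depth ran from 17.5 to 86.7 M (mega-counts) in spinal cord and from 0.472 to 256 M in MN-TRAP, where 4 libraries held under 5 M, 2 of them Chat bacTRAP at 14 weeks. One of those 2 also held Y-linked reads. The Rpsa pseudogene Lamr1-ps1 gave 0.535 to 3.13 counts per mega-count (CPM) in the 18 hTDP-43A315T libraries and at most 0.0374 CPM in 35 of the others, but 1.27 to 1.96 CPM in 3 MN-TRAP libraries labelled as controls (1 Chat bacTRAP at 9 weeks, 1 hTDP-43WT at each age). These 3 libraries stand apart from their labels in this respect, and results that move without them are given both ways. Summed over 8 motor neuron markers, MN-TRAP held 2300 to 8520 CPM and spinal cord 400 to 706; the ranges of the fractions did not overlap. The 10 oligodendrocyte markers summed to 1790 to 24100 CPM in MN-TRAP and 17700 to 29300 in spinal cord, none at 0 in either fraction. Fewer cells of a type and less RNA per cell cannot be told apart in such samples.

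The motif that names the TOP class, taken as a C followed by at least 4 pyrimidines, stood exactly at the annotated start in 14 of 67 members with a start in the table (20.9%), against 813 of 27025 genes (3.0%). Of those 14 members 5 were picked to show it and are printed beside Rpl10a, the tagged protein's gene, which is not among them. Each is a window of 30 bases from RefSeq (build GRCm38.p6) around the annotated first base, and capitals mark the unbroken run of C and T that covers this base.
Rpl14, chr9:120571502-120571531, plus strand: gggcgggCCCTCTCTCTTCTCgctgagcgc
Rpl35, chr2:39005117-39005146, minus strand: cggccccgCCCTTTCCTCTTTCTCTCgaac
Rpl15, chr14:18270972-18271001, minus strand: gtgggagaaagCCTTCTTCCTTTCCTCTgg
Rpl28, chr7:4792950-4792979, plus strand: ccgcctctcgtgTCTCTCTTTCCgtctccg
Rpl38, chr11:114668565-114668594, plus strand: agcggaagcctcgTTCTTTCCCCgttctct
Rpl10a, chr17:28328456-28328485, plus strand: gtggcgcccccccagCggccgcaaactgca
Within 10 bases of the start the motif was found in 40 members (59.7%) and in 34.4% of all genes, read on the gene's own strand. Rpl10a was among these 40 members, and another annotated start of Rpl10a is not printed. Annotated starts can lie some bases off the true one, and a match says only that these letters are there.

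Levels differed widely within the family. Per kilobase of transcript, the mean level in spinal cord was 544 CPM for Rpl8, 437 for Rpl4 and 412 for Rplp1, but 1.87 for Rps27, 1.33 for Rpl5 and 3.95 for Rpl10. Several of the low members have near-identical copies in the genome, though not all: no stretch of the low Rpl39l and Rpl3l is shared. For Rpl5 51.5% of the transcript is unique, but only 891 of its 2045 bases are coding, and where the unique part lies was not examined. Of the 50-base stretches of its transcript, Rps27 shares all but 1.4% with other annotated genes, Rpl10 all but 7.9% and Rpl10a all but 11.9%, whereas 92.1% of Rpl8 and 83.5% of Rpl4 are found nowhere else. Among the 25 tested members with up to 25% unique sequence the median level was 8.93 CPM per kilobase. It was 62.6 in 24 members from 25 to 50%, 83.0 in 23 from 50 to 75% and 37.3 in 13 above 75%, so it did not rise steadily. Spearman's rho between the unique share and the level was 0.41 over 85 members, which share libraries and are not independent. Reads that fit several genes are commonly left out of such counts, so levels between members are not measures of their mRNA, and below each member is compared between libraries; the level of Rpl10a relative to the family median is likewise set against that in other libraries.

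As a share of all counts the family was larger in MN-TRAP than in spinal cord. It took 0.655% ± 0.107 (SD, n = 31) of counts in spinal cord, from 0.429 to 0.958%, and 0.856% ± 0.123 (SD, n = 25) in MN-TRAP, from 0.638 to 1.15%. The ranges overlapped, and the order of the fractions was the same in each genotype, with means of 0.652 and 0.843% in Chat bacTRAP, 0.649 and 0.839% in hTDP-43A315T, and 0.663 and 0.889% in hTDP-43WT.

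**Figure D1:**
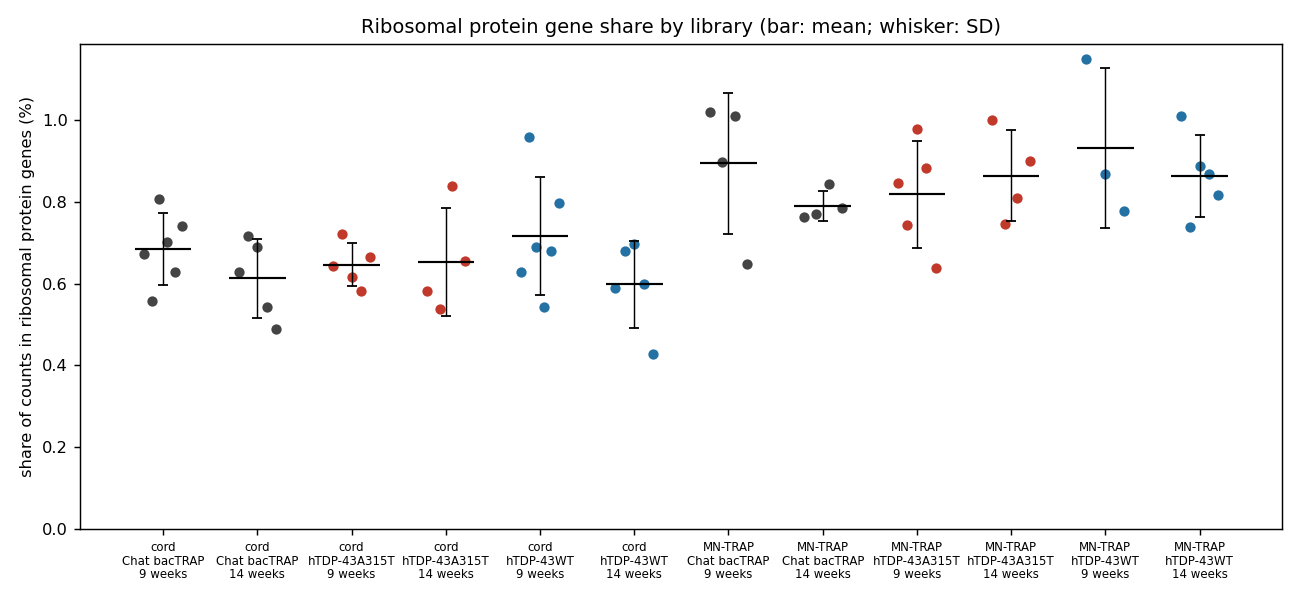
Share of all counts (%) in ribosomal protein genes in each library, by fraction, genotype and age; points are libraries, bars means and whiskers SD. MN-TRAP libraries lie between 0.638 and 1.15% and spinal cord libraries between 0.429 and 0.958%.

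Gene by gene, most ribosomal protein mRNAs were richer in ribosome-bound RNA of motor neurons than in the cord. In Chat bacTRAP, 50 of 87 members were higher in MN-TRAP and 3 lower, where 23.6% of all 18838 genes were higher and 34.1% lower (edgeR quasi-likelihood test, Benjamini-Hochberg adjusted p below 0.05 over all genes). The median member changed by 0.55 on the log2 scale and the median of all genes by -0.21. In hTDP-43A315T 62 members were higher and 0 lower (28.7% and 34.1% of all genes), with a median of 0.73, and in hTDP-43WT 58 were higher and 1 lower (24.6% and 29.7%), with a median of 0.73. With a change of at least 2-fold besides, 13, 23 and 19 members were higher in Chat bacTRAP, hTDP-43A315T and hTDP-43WT, and 9.25%, 13.3% and 9.80% of all genes. Called higher in all 3 genotypes were 49 of 87 members, while 22 were called higher in none. Over all genes the share called higher in all 3 is at most 23.6%, that of Chat bacTRAP, and is not given more closely. The 40S and 60S proteins had medians of 0.57 and 0.51 in Chat bacTRAP. Without the 9 libraries with over 5% mitochondrially encoded counts, fewer members were called higher in Chat bacTRAP. That fit keeps only replicate 1 of Chat bacTRAP spinal cord at 14 weeks, so its count is not given. The lower levels of glial markers in MN-TRAP move with these changes, and their part was not tested.

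**Figure D2:**
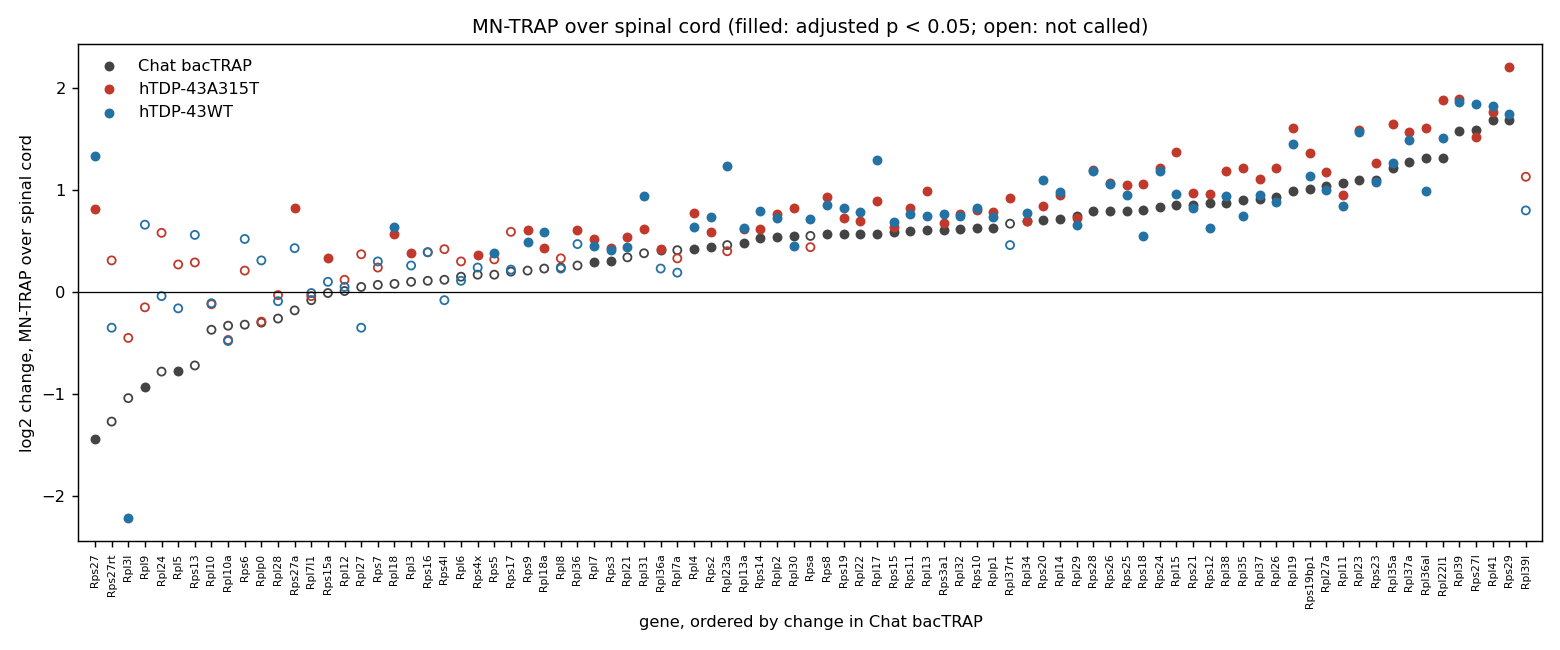
log2 change of each ribosomal protein gene in MN-TRAP over spinal cord in the 3 genotypes, ordered by Chat bacTRAP; filled points passed the adjusted p of 0.05. Most points lie above 0, with Rps29, Rpl41, Rps27l and Rpl39 at the upper end.

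The largest rises were in the smallest proteins. Rpl41, the shortest protein of the ribosome, ranged from 243 to 496 CPM in the 8 MN-TRAP libraries of Chat bacTRAP (median 409) and from 77.9 to 171 CPM in the 11 of spinal cord (median 119). These did not overlap, and Rpl41 was 3.22-fold higher (log2 1.69 ± 0.17 SE, adjusted p = 5.85e-12). Rpl39, a small protein of the large subunit that lines the exit tunnel, ranged from 38.8 to 67.8 CPM against 10.1 to 26.8 in spinal cord and was 3.00-fold higher (adjusted p = 8.47e-09). Rps29 of the small subunit was 3.24-fold higher in Chat bacTRAP and 4.63-fold higher in hTDP-43A315T, where it ranged from 7.50 to 23.1 CPM in MN-TRAP and from 2.30 to 3.45 in spinal cord.

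Of 8 paralog pairs looked at, Rpl10l not being tested, 3 had the larger rise in the copy with the suffix l in Chat bacTRAP. Rps27l, which resembles Rps27, ran from 32.8 to 51.8 CPM in MN-TRAP and from 8.39 to 20.5 in spinal cord of Chat bacTRAP (log2 1.59 ± 0.17 SE, adjusted p = 2.00e-11). Rps27 had a log2 change of -1.44 there, from few reads. Rpl22l1 was 2.48-fold higher and Rpl22 1.49-fold, with adjusted p = 3.21e-06 and 6.84e-06. Rpl36al was 2.48-fold higher and Rpl36a 1.33-fold. The difference between the copies of a pair was not tested. Rpl3l, the form of Rpl3 found in striated muscle, had a median of 0.480 CPM in MN-TRAP and 1.21 CPM in spinal cord of Chat bacTRAP and was lower in hTDP-43WT (log2 -2.22 ± 0.71 SE, adjusted p = 0.00730). The 8 skeletal muscle markers, none at 0, summed to 3.03 to 272 CPM in MN-TRAP and 30.6 to 859 in spinal cord of hTDP-43WT, and their part in this was not tested. Rpl7l1 had a log2 change of -0.08 ± 0.10 SE in Chat bacTRAP (adjusted p = 0.515) beside 0.29 for Rpl7. Rps4l had 0.12 there beside 0.17 for Rps4x. Rpl39l, from few reads, had 1.13 in hTDP-43A315T beside 1.89 for Rpl39.

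The proteins of the stalk, to which elongation factors bind, did not move as one. Rplp1 and Rplp2 were 1.54-fold and 1.45-fold higher in Chat bacTRAP (adjusted p = 0.00137 and 0.0113) and 1.72-fold and 1.69-fold in hTDP-43A315T. Rplp0, which anchors them, had log2 values of -0.30, -0.29 and 0.31 in Chat bacTRAP, hTDP-43A315T and hTDP-43WT, with adjusted p = 0.192, 0.191 and 0.180. In hTDP-43WT 1 library of 14 weeks held 444 CPM of Rplp0 against a median of 109. Rpl5 and Rpl11, partners in the 5S particle that binds Mdm2, differed. Rpl11 was 2.10-fold higher in Chat bacTRAP (adjusted p = 0.000613). In its MN-TRAP, 1 library of 14 weeks with 2.41 M counts held 37.0 CPM of Rpl11 from 90 reads, and the others 5.31 to 10.5 CPM. Rpl5, at 0.411 to 3.16 CPM in MN-TRAP of Chat bacTRAP, was lower (log2 -0.77 ± 0.29 SE, adjusted p = 0.0206). The call for Rpl5 was lost without the libraries rich in mitochondrial counts. That fit keeps only replicate 1 of Chat bacTRAP spinal cord at 14 weeks, so fewer libraries cannot be told apart from the counts in question. Rpl9 (log2 -0.93) and Rps27 (log2 -1.44) were the other members called lower in Chat bacTRAP, both at under 5 CPM. Rpsa, which also serves as a laminin receptor, had a log2 change of 0.72 in hTDP-43WT (adjusted p = 0.0268), 0.55 in Chat bacTRAP (adjusted p = 0.0684) and 0.44 in hTDP-43A315T (adjusted p = 0.147). The hTDP-43WT value rests on the library of 0.472 M counts, which held 32.6 CPM from 16 reads where the other 7 held 2.80 to 9.80, and without it the change was 0.31 (adjusted p = 0.323).

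Of 20 other genes of the translation machinery, chosen as further mRNAs of the TOP class, 9 were higher and 5 lower in Chat bacTRAP. Those higher included the elongation factor subunit Eef1b2 (log2 0.89 ± 0.12 SE) and the chaperone Nap1l1 (1.02 ± 0.12). Those lower included the elongation factors Eef1a1 (-0.89 ± 0.12) and Eef2 (-0.55 ± 0.15), the poly(A)-binding protein Pabpc1 (-1.12 ± 0.15) and Tpt1 (-1.07 ± 0.24). In hTDP-43A315T 11 were higher and 4 lower, and in hTDP-43WT 11 and 5.

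Coding length moved with the change, in the family and outside it. Among 85 members Spearman's rho between coding length and the log2 change was -0.44 in Chat bacTRAP, -0.58 in hTDP-43A315T and -0.49 in hTDP-43WT, given as a description, since members share libraries. The 12 members of up to 300 coding bases had a median of 0.89 in Chat bacTRAP and the 317 other genes of that length 0.65. From 301 to 450 bases, 30 members had 0.66 and 776 other genes 0.49, and from 451 to 600 bases 19 members had 0.34 and 956 others 0.38. From 601 to 900 bases 20 members had 0.30 and 2195 others 0.09. In hTDP-43WT and in hTDP-43A315T the members lay above other genes of their length in all 4 of these classes. In the shortest it was 1.26 against 0.63 in hTDP-43WT and 1.19 against 0.76 in hTDP-43A315T, but from 451 to 600 bases 0.61 against 0.56 in hTDP-43A315T. From 901 to 1500 bases 4 members had -0.1, 0.04 and 0.28 in Chat bacTRAP, hTDP-43A315T and hTDP-43WT, and 4485 others -0.1, -0.01 and -0.05. Classes of 4, 12 and 19 members are thin, and the part of length in the changes was not tested.

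**Figure D3:**
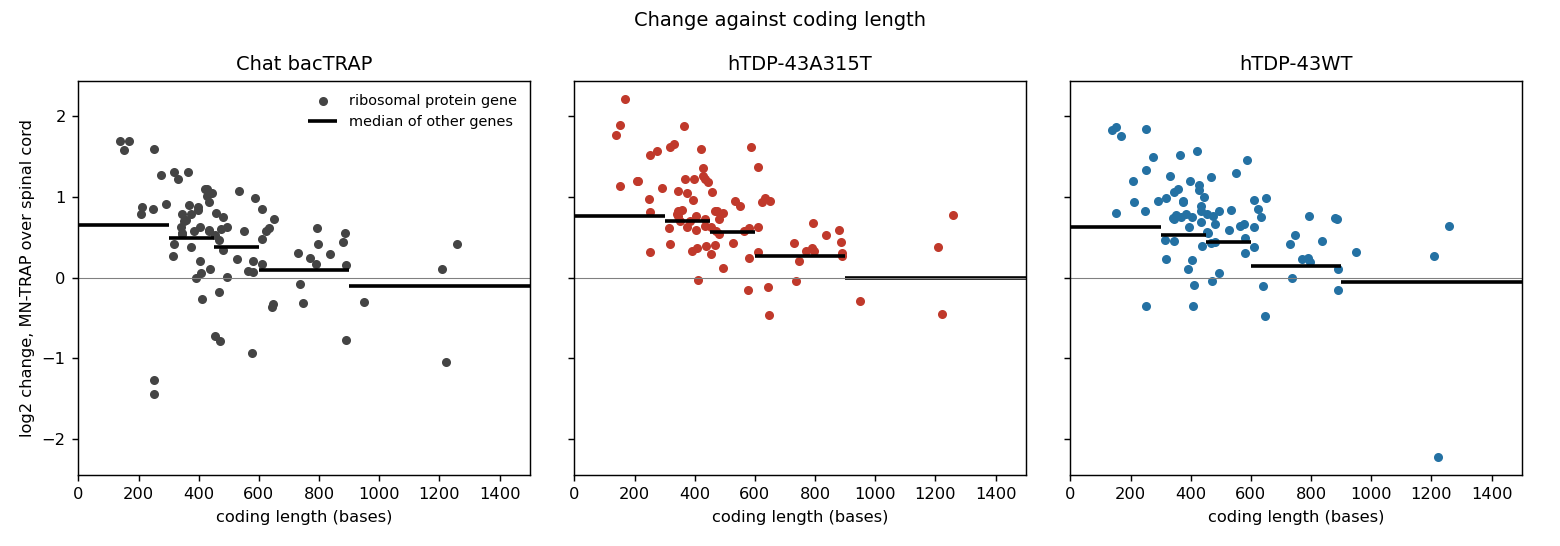
log2 change in MN-TRAP over spinal cord against coding length in bases, for each genotype; points are ribosomal protein genes and black bars the median of other tested genes in each length class. Both run downwards with length.

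Rpl10a is the gene whose protein carries the tag. Whether reads of the transgene are among those counted to it was not tested. It took 3.51 to 10.5 CPM in spinal cord (median 6.37, 96 to 649 reads) and 1.66 to 18.9 CPM in MN-TRAP (median 3.75, 7 to 790 reads). Rpl10a was thus not among the enriched members: its log2 change was -0.33 ± 0.24 SE in Chat bacTRAP, -0.47 ± 0.24 in hTDP-43A315T and -0.48 ± 0.26 in hTDP-43WT, with adjusted p = 0.239, 0.0755 and 0.111. Relative to the median of the other members in the same library, it lay at -2.39 ± 0.36 (SD, n = 31) on the log2 scale in spinal cord and at -3.53 ± 0.87 (SD, n = 25) in MN-TRAP. The difference of -1.14 had p = 2e-05 in a two-sided permutation test of 100000 resamples, the smallest that these can give. The median member itself rose by 0.55 in Chat bacTRAP, so a member that did not change would also lie lower in MN-TRAP. There 71 of 87 members had a positive change, and those that did not include Rpl10 (log2 -0.37) and Rplp0 (-0.30). No other member was put to this test, so it does not set Rpl10a apart from them. Within genotype and age the difference for Rpl10a was negative in all 6 pairs of groups, from -0.24 in Chat bacTRAP at 14 weeks to -1.57 in Chat bacTRAP at 9 weeks. Adding the counts of its pseudogenes gave -0.90. The pseudogene Rpl10a-ps1 was itself 1.68-fold higher in MN-TRAP of Chat bacTRAP (adjusted p = 0.0446).

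**Figure D4:**
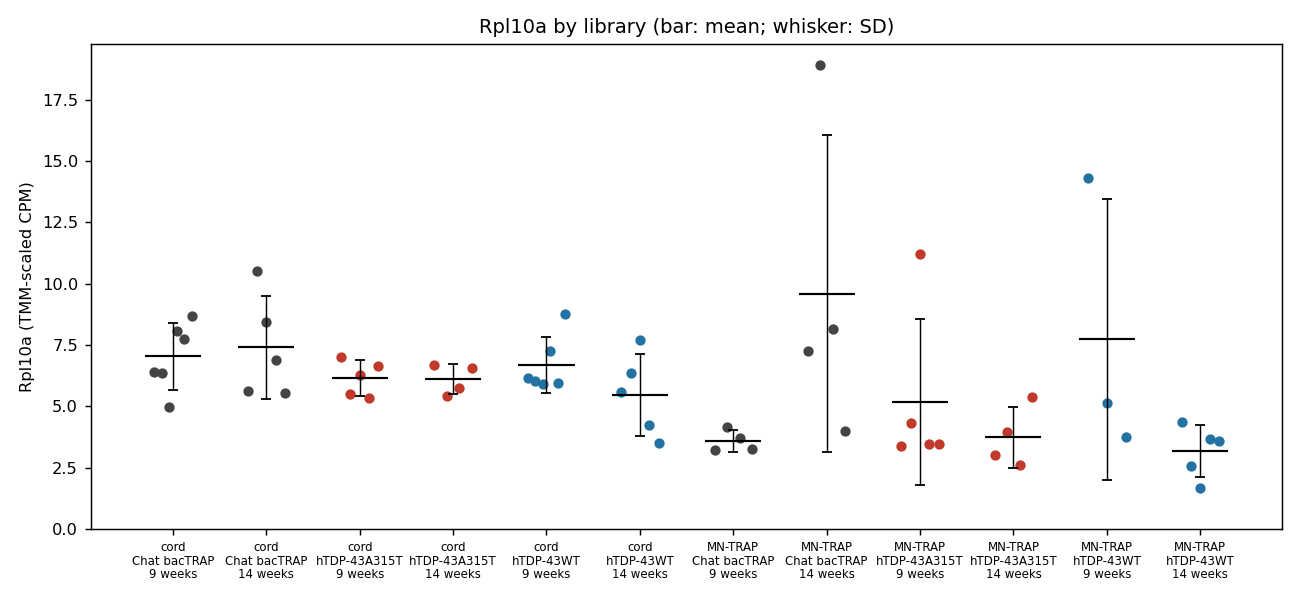
Rpl10a in each library (TMM-scaled CPM), by fraction, genotype and age; points are libraries, bars means and whiskers SD. The ranges overlap, 1.66 to 18.9 CPM in MN-TRAP (median 3.75) and 3.51 to 10.5 CPM in spinal cord (median 6.37). The highest value, 18.9 CPM, is from a Chat bacTRAP MN-TRAP library of 14 weeks with 46 reads of Rpl10a.

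Between genotypes at 14 weeks in MN-TRAP, 6 of 87 members were higher and 1 lower in hTDP-43A315T against Chat bacTRAP, where 7.92% and 5.98% of all genes were, so the share of members higher was near that of all genes. The log2 change was positive in 65 of 87 members, with a median of 0.28 where that of all genes was 0.09. Members share libraries, so these signs are not independent. Markers of other cells were lower in the same comparison: 9 of 10 oligodendrocyte markers (median -1.34), 3 of 8 astrocyte markers (-1.28) and 7 of 8 skeletal muscle markers (-5.26). The oligodendrocyte markers, none at 0, summed to 2060 to 2820 CPM in hTDP-43A315T and 3270 to 20900 in Chat bacTRAP, and the skeletal muscle markers, none at 0, to 2.95 to 15.5 and 12.8 to 1120. With a covariate for glial markers 4 members were called, and the part of muscle was not tested. Rpl7 took 121, 133, 169 and 171 CPM in the 4 hTDP-43A315T libraries and 86.7, 94.5, 97.2 and 96.4 in the 4 of Chat bacTRAP, with no overlap (1.59-fold, adjusted p = 0.00404). Rpl4 was 1.56-fold and Rps25 1.44-fold higher (adjusted p = 0.00521 and 0.0455), and Rps19bp1 1.75-fold (adjusted p = 0.0163). Rps13 and Rps27 were the other 2, from few reads: Rps27 was at 0, 0, 0 and 0.421 CPM in Chat bacTRAP and at 0.730 to 1.65 in hTDP-43A315T. Rpl10a was the member that was lower, at 2.61 to 5.37 CPM against 7.27, 8.17 and 18.9 in 3 Chat bacTRAP libraries and a value inside the hTDP-43A315T range in the other (log2 -1.30 ± 0.37 SE, adjusted p = 0.0142).

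In hTDP-43WT against Chat bacTRAP 19 members were higher and 1 lower, against 16.1% and 5.45% of all genes. Among them Rpl7 was 1.70-fold, Rpl4 1.54-fold, Rps25 1.62-fold and Rpl22l1 2.05-fold higher. Rpl39l was at 0 in all 4 Chat bacTRAP libraries and at a mean of 0.466 CPM in hTDP-43WT, from 0.720, 0, 1.24, 0.167 and 0.200 CPM in the 5 libraries. Against a floor of 3 counts over the Chat bacTRAP group this is at least 7.84-fold higher, or at least 4.57-fold without hTDP-43WT replicate 3, the library at 1.24 CPM; the bounds cover counting error only, and 1 hTDP-43WT library was itself at 0. Rpl10a was lower here too, against the same 4 Chat bacTRAP libraries (log2 -1.53 ± 0.34 SE, adjusted p = 0.00176). In hTDP-43A315T against hTDP-43WT, which carry transgenes from the same promoter, 1 member was higher and 1 lower, against 0.929% and 6.31% of all genes. All 10 oligodendrocyte markers were lower too (median -1.76), at 2480 to 24100 CPM summed in hTDP-43WT, and with the covariate for glial markers 0 members were called. Rpl27 was 2.23-fold higher, at 3.04 to 10.4 CPM against 1.56 to 4.79 (adjusted p = 0.0208). Rps27l was lower (log2 -0.78 ± 0.24 SE, adjusted p = 0.0394), with 1 hTDP-43WT library at 115 CPM and the other 4 at 44.0 to 60.8. These comparisons share libraries.

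These calls at 14 weeks come from the edgeR fit over both fractions and did not hold in every fit. With MN-TRAP libraries alone in the fit, and with limma-voom and sample quality weights, 0 members were called in each of the 3 comparisons. Without the libraries under 5 M counts, 14 members were called in hTDP-43A315T against Chat bacTRAP, and without those rich in mitochondrial counts 4.

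**Figure D5:**
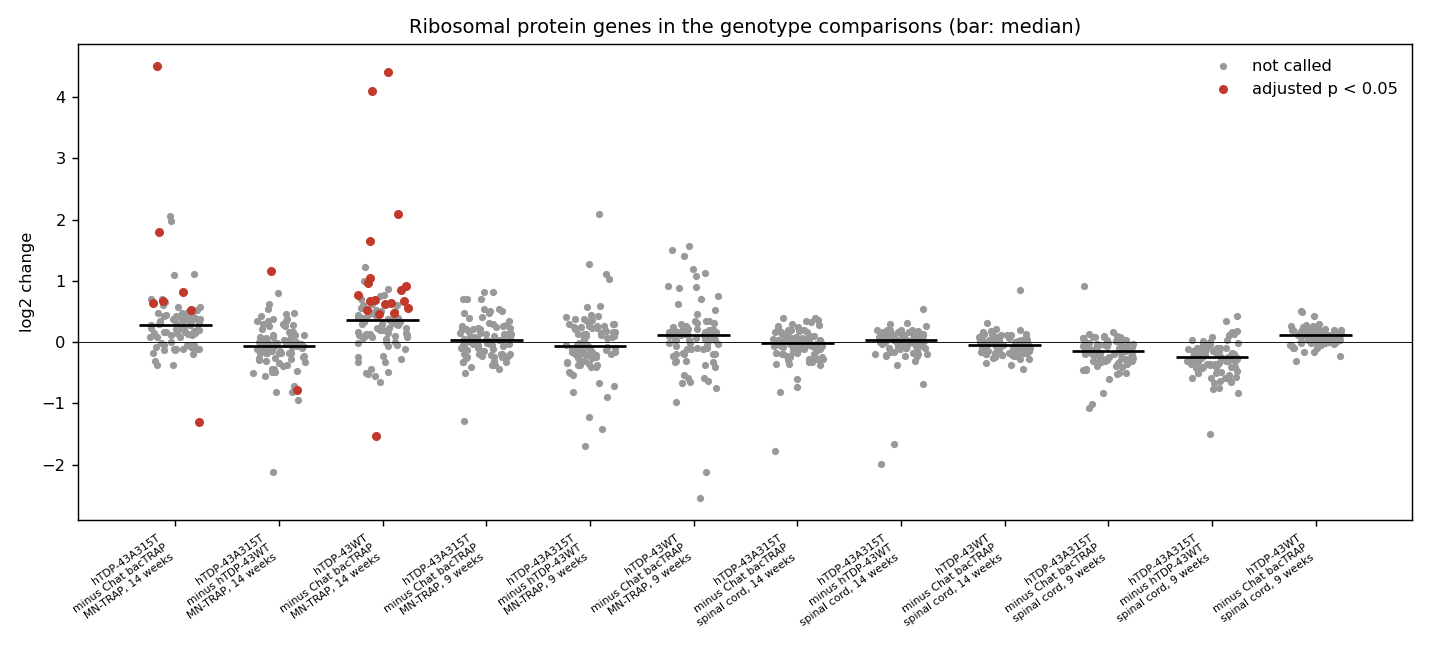
log2 change of each ribosomal protein gene in the 12 genotype comparisons; red points passed the adjusted p of 0.05 and bars are medians. Red points are seen only in MN-TRAP at 14 weeks, where the medians are 0.28, -0.07 and 0.36; Rpl39l is left out where a group is at 0.

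At 9 weeks in MN-TRAP edgeR called 0 members in the 3 genotype comparisons, where 0.552%, 2.27% and 0.223% of all genes were called. At an unadjusted p below 0.05 there were 3, 7 and 12 of 87 members, beside 2258, 2930 and 2515 of all 18838 genes. DESeq2 called 3 members in all. Without the 3 control libraries that hold Lamr1-ps1 reads, 14 were called. The largest differences that were not called include Rpsa in hTDP-43A315T against hTDP-43WT (log2 -1.22 ± 0.45 SE, adjusted p = 0.148), where the hTDP-43WT library with the fewest counts held 32.6 CPM and the other 2 held 9.80 and 4.52.

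In spinal cord edgeR called 0 members in the 6 genotype comparisons, where 0.0212%, 0.0265% and 0.00531% of all genes were called at 14 weeks (hTDP-43A315T against Chat bacTRAP, hTDP-43A315T against hTDP-43WT, hTDP-43WT against Chat bacTRAP) and 0.0425%, 0.0212% and 0% at 9 weeks. Medians lay between -0.25, for hTDP-43A315T against hTDP-43WT at 9 weeks, and 0.11, for hTDP-43WT against Chat bacTRAP at that age. In the former 16 members passed an unadjusted p of 0.05, and in the other 5 comparisons 0 to 5. The count of all genes at that p is not given for the former, so the 16 cannot be set against it. At 14 weeks 3, 3 and 0 members passed, in the order above, beside 711, 407 and 339 of all 18838 genes. For hTDP-43A315T against Chat bacTRAP at 9 weeks it was 5 members beside 379 genes. DESeq2 called 0 members as well, while limma-voom with sample quality weights made 79 calls of members over the 6 comparisons. The share of all genes that limma-voom called is not given here, so the 79 cannot be set against it.

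From 9 to 14 weeks 5 members were called in MN-TRAP of Chat bacTRAP, 1 higher and 4 lower (1.29% and 4.99% of all genes), 0 in hTDP-43A315T (0.0106% in either direction) and 7 in hTDP-43WT, 2 higher and 5 lower (6.08% and 4.58%). In Chat bacTRAP Rpl10a was higher at 14 weeks (log2 1.36 ± 0.37 SE, adjusted p = 0.0229), at 7.27, 8.17 and 18.9 CPM in 3 libraries. The other, which holds the Y-linked reads, lay within the 3.22 to 4.17 CPM of 9 weeks. Rpl7, Rps25, Rpl3 and Rps27 were lower in Chat bacTRAP at 14 weeks, Rpl7 by 1.63-fold (adjusted p = 0.00502). In hTDP-43WT, with 3 libraries at 9 weeks of which 1 held 0.472 M counts, Rpsa, Rps13, Rpl19, Rps16 and Rpl31 were lower and Rpl30 and Rps15a higher. Of these 3 libraries replicate 2 held the most Rps16 (50.4 CPM against 6.12 and 20.4), Rps13, Rpl19 and Rpl31, and the least Rpl30 and Rps15a. Replicate 1, with 0.472 M counts, held the most Rpsa. Leaving out replicate 2 of 9 weeks gave 0 calls, and leaving out replicate 1 gave 17. With MN-TRAP libraries alone in the fit 0 were called in either genotype. In hTDP-43A315T 2 members passed an unadjusted p of 0.05 and DESeq2 called 0. In spinal cord edgeR called 0 members and 0% of all genes between ages in any genotype, with 0, 0 and 6 members at an unadjusted p below 0.05. The counts of all genes at an unadjusted p below 0.05 are not given for these age comparisons.

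Whether the MN-TRAP enrichment itself differed between genotypes was tested as an interaction. It was called for Rps27 alone, in hTDP-43WT against Chat bacTRAP (log2 2.78 ± 0.62 SE, adjusted p = 0.0202), where 0.403% of all genes were called. Against this, 0 members were called in hTDP-43A315T against Chat bacTRAP (0.690% of all genes) and against hTDP-43WT (0.648%), with 7 and 5 at an unadjusted p below 0.05. The counts of all genes at that unadjusted p are not given, so the 7 and 5 cannot be set against them. Members share libraries, so the signs of their changes are not independent, and the share of all genes that was positive is not given. In hTDP-43A315T against Chat bacTRAP the median interaction was 0.24, with a positive sign in 80 of 87 members, beside a median of 0.07 for all genes. Glial markers had medians of -1.16 (10 oligodendrocyte markers, all at an unadjusted p below 0.05), -1.08 (8 astrocyte markers) and -1.35 (8 microglial markers) there, and their part was not tested.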

How the data were processed

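The deposited counts are raw reads per gene, which the authors made with STAR and featureCounts on mm10 (GRCm38) per the labels and the study's methods; deposited normalized values were not used. Symbols were missing for 1167 of 43629 gene identifiers. Members and gene lists were chosen with earlier results of these data known. In R 4.3.3, edgeR 4.0.16 filtered genes by group (filterByExpr, 18838 left), scaled libraries by TMM and modelled the 12 group means over all 56 libraries with its robust quasi-likelihood test. Adjusted p-values are Benjamini-Hochberg over all genes, called below 0.05. CPM are TMM-scaled. Rpl10a relative to the other members was tested by two-sided permutation over libraries (scipy 1.17.1; exact in groups under 10). On simulated data for MN-TRAP over spinal cord in Chat bacTRAP (18838 genes), 41 of 100 genes changed by 0.6 and 90 of 100 by 1.5 on the log2 scale were recovered, with 11 false calls.

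Named were Rpl10a, the stalk, Rpsa, Rpl5, Rpl11, paralog pairs, the 5 largest changes each way with at least 5 CPM in Chat bacTRAP MN-TRAP over spinal cord, the 4 largest each way in the hTDP-43A315T comparisons in MN-TRAP, and members called at 2-fold between genotypes or ages; not all are described. Other names were chosen after their values were seen. Samples were grouped by title. Part of each lysate was kept as the spinal cord input, and the 2 fractions therefore share animals; which libraries match is not given, and p-values measure the spread between libraries. Alternatives were DESeq2 1.42.0, limma-voom (limma 3.58.1), other normalization, filters and covariates, and omission of libraries.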

Additional observations from a re-analysis of the deposited data

Results flagged for a closer look

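Dixon's criterion was applied to 75 sets of library values, of which 8 had a value far from the rest; chance flags about 1 in 20. The log2 level of Rpl10a relative to the family median was -2.61 in hTDP-43A315T MN-TRAP replicate 3 of 9 weeks, the highest of its group, -5.22 in hTDP-43WT MN-TRAP replicate 3 of 14 weeks, the lowest, and -3.12 in Chat bacTRAP spinal cord replicate 3 of 9 weeks, the lowest. In MN-TRAP at 14 weeks the log2 CPM of Rpl18 was 3.72 in Chat bacTRAP replicate 2, the lowest. Rplp0 was 6.68 in hTDP-43A315T replicate 4 and 8.79 in hTDP-43WT replicate 3, both the highest. Rps27 was -1.08 in Chat bacTRAP replicate 4 and Rps27rt -3.45 in Chat bacTRAP replicate 1, the highest of their groups and from few reads.

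The change of Rps27 in MN-TRAP over spinal cord differed between hTDP-43WT and Chat bacTRAP by 2.78 on the log2 scale in the interaction test of edgeR. Rps27 was at 0 CPM in 3 Chat bacTRAP libraries of 14 weeks.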

How the results depend on the processing

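The counts of members higher in MN-TRAP stayed within 1.5 times under every alternative run, leaving out single libraries included (46 to 54 in Chat bacTRAP, 56 to 67 in hTDP-43A315T, 52 to 59 in hTDP-43WT). Calls between genotypes and ages did not. For hTDP-43A315T against Chat bacTRAP in MN-TRAP at 14 weeks (7 called), there were 4 with a covariate for glial markers, 0 with limma-voom, with MN-TRAP alone and with MN-TRAP of that age alone, 14 without libraries under 5 M counts, 11 without the library with Y-linked reads, 4 without libraries over 5% mitochondrial counts, and 4 to 11 with single libraries left out (4 without Chat bacTRAP replicate 1, 11 without replicate 4). For hTDP-43A315T against hTDP-43WT (2) there was 1 with median-ratio normalization, with no filter and with the replicate block, 0 with the glial covariate, limma-voom and both restricted fits, and 0 to 3 with single libraries left out (0 without hTDP-43A315T replicate 1 or 4 or hTDP-43WT replicate 3, 1 without hTDP-43A315T replicate 2). For hTDP-43WT against Chat bacTRAP (20) there were 11 with median-ratio normalization, 13 with no filter, 0 with limma-voom and both restricted fits, 12 without mitochondria-rich libraries, and 10 to 21 with single libraries left out (11 without hTDP-43WT replicate 3, 10 without Chat bacTRAP replicate 3). At 9 weeks (0) there were 3 with DESeq2 and without libraries under 5 M counts, 14 without the libraries with Lamr1-ps1 reads, and 0 to 13 with single libraries left out (13 without hTDP-43WT replicate 3, 1 without replicate 1). In spinal cord (0) there were 79 with limma-voom, 4 with the fraction alone, 2 without shallow libraries and 0 to 1 with single libraries left out (1 without Chat bacTRAP replicate 2 of 9 weeks), and between ages 1 with limma-voom. Between ages in MN-TRAP, Chat bacTRAP (5) gave 3 with median-ratio normalization and no filter, 0 with limma-voom and the fraction alone, 13 without shallow libraries, 11 without the Y-linked library, and 2 to 11 with single libraries left out (2 without replicate 1 of 9 weeks, 11 without replicate 4 of 14 weeks). hTDP-43WT (7) gave 3 with no filter, 2 with the replicate block, 0 with limma-voom and the fraction alone, 11 with DESeq2, 13 without Lamr1-ps1 libraries, 17 without shallow ones, and 0 to 17 with single libraries left out (17, 0 and 13 without replicates 1, 2 and 3 of 9 weeks, 3 without replicate 3 of 14 weeks). The interactions (1) gave 0 with limma-voom, 3 with DESeq2, 5 without Lamr1-ps1 libraries and without the Y-linked one, and 6 without shallow ones. The interaction call was lost without mitochondria-rich libraries, a fit that keeps only replicate 1 of Chat bacTRAP spinal cord at 14 weeks. The alternatives for the interactions, limma-voom for MN-TRAP over spinal cord and, outside MN-TRAP genotypes, the glial covariate were chosen after seeing the data. Shares of all genes called under these alternatives are not given here. The cause was not tested.

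Median-ratio normalization moved the median change of all genes in MN-TRAP over spinal cord of hTDP-43A315T from -0.095 to -0.224, and that of the members from 0.73 to 0.60. Rpl10a relative to the family was lower in MN-TRAP by -1.25 to -1.07 with single libraries left out. Between genotypes at 14 weeks, hTDP-43WT differed from Chat bacTRAP by -1.81 (exact permutation p = 0.0159, adjusted p = 0.0556, n = 5 and 4; -2.17 to -1.36 with single libraries left out) and hTDP-43A315T by -1.59 (p = 0.0571 exact; -1.96 to -1.15). Against the other large-subunit members the latter was -1.60 (exact p = 0.0286). hTDP-43A315T against hTDP-43WT turned from 0.21 to -0.05 without hTDP-43WT replicate 3 (highest 0.40). With 3 against 4 libraries the smallest exact p is 0.0571.

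Libraries of the same number in MN-TRAP and spinal cord did not deviate together: 10 of 25 pairs correlated above 0.1 over 9957 genes (range -0.439 to 0.471, median 0.003). With pairs as a replicate block, 48, 60 and 52 members were higher in MN-TRAP of Chat bacTRAP, hTDP-43A315T and hTDP-43WT. Shallow MN-TRAP libraries limit members of a few CPM, such as Rps27, Rps13 and Rpl24.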
